A study of Mus musculus with 21 samples.

Results

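The 42 genes described here encode the non-collagen part of the extracellular matrix: elastin and the microfibril proteins, fibulins and emilin, latent TGF-beta binding proteins (LTBPs), lysyl oxidases, small leucine-rich and large proteoglycans, matricellular proteins, and fibronectin with the nidogens. They were taken by gene symbol from the 56691 genes of the expression table, and all 42 were found. RNA had been sequenced from mouse hearts in 4 groups. Control (5 libraries) came from mice without a tumor that received saline. DOX (5 libraries) came from mice without a tumor that received intraperitoneal doxorubicin (DOX), an anthracycline chemotherapeutic, at 5 mg/kg once a week for 3 doses. Tb (6 libraries) came from mice that carried subcutaneous tumors grown from 4T1 cells, a mouse breast cancer line, and that received saline, and Tb-DOX (5 libraries) came from such mice given the same DOX course. No genetic change, strain or age is given for these libraries in the sample labels, and the tumor of every Tb and Tb-DOX mouse came from the same cell line.

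As background, an elastic fiber consists of a core of cross-linked elastin laid down on a scaffold of fibrillin microfibrils. Fibulins and emilin join elastin to the microfibrils, lysyl oxidases form the cross-links of elastin and of collagen, and LTBPs hold latent TGF-beta in the matrix. Small leucine-rich proteoglycans bind collagen and shape its fibrils, whereas matricellular proteins such as periostin, SPARC and the thrombospondins act on cells and on matrix assembly more than as structural parts. In the heart most of these genes are known as products of fibroblasts, with contributions from vascular cells.

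Total counts were 13521200 to 18601445 per library. In the labels, each of the 21 libraries is given the 4T-1 line as its source. The summed level of 8 cardiomyocyte markers was 44254 to 83693 CPM (counts scaled to the library total, here with edgeR's TMM factors) and that of 5 epithelial markers was 0.195 to 4.58, so the libraries are called heart throughout. Genes encoded by mitochondrial DNA took 14.6% of the counts in Control 3 and 18.3% to 28.9% in the others. With scaling by library totals in place of TMM, the median over all 13990 genes tested moved on the log2 scale from 0.00 to −0.14 in DOX vs Control and from −0.01 to 0.18 in Tb-DOX vs DOX, and the changes below are given on the TMM scale. Tb 5 stood apart in several genes, and values without it are given beside *Fbn1*, *Lox*, *Ogn*, *Dcn*, *Vcan*, *Tnxb*, *Thbs4* and *Thbs1*. The sources do not say whether libraries of a group share litters or cages, and the p-values take each library as independent. They rest on a spread between libraries that was estimated over all 4 groups together.

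Among the 42 genes, decorin (*Dcn*) had the highest level per gene length, at 137 ± 6.62 FPKM (counts scaled to gene length and library total, mean ± SD, n = 5) in Control. It was followed by *Sparc* at 99.5 ± 5.78, osteoglycin (*Ogn*) at 71.1 ± 8.80, lumican (*Lum*) at 65.3 ± 8.20 and biglycan (*Bgn*) at 35.8 ± 3.18 FPKM. *Ogn* and *Lum* differed by less than their spread. Elastin itself (*Eln*) was at 3.53 ± 0.919 FPKM and ranked 20 of 42, and the main lysyl oxidase (*Lox*) was at 1.14 ± 0.323 FPKM and ranked 36.

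After DOX, the order among the genes was different. *Dcn* kept rank 1, at 155 ± 42.6 FPKM, whereas *Lum* went from rank 4 to rank 7 at 12.8 ± 4.46 FPKM, and *Postn* from rank 11 to rank 22 at 2.24 ± 1.55 FPKM. *Lox* reached rank 10 at 8.91 ± 3.55 FPKM and *Thbs2* went from rank 19 to rank 6 at 13.8 ± 5.67 FPKM. These ranks are a description and were not tested.

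**Figure D1:**
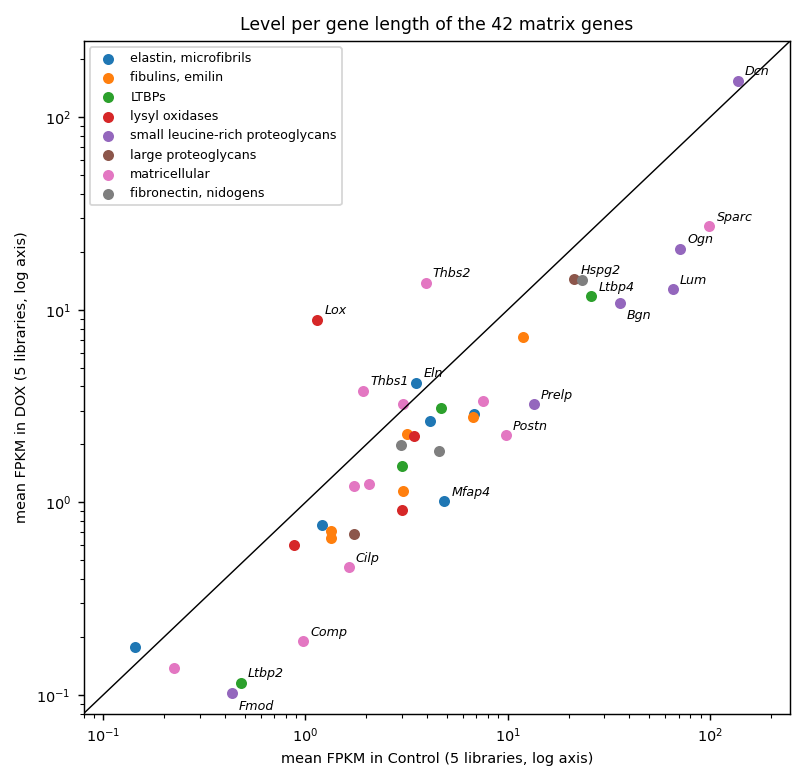
Each point is 1 of the 42 genes, with its mean FPKM over 5 Control libraries on the x axis and over 5 DOX libraries on the y axis (both log axes), colored by role, and the line marks equal levels. Most points lie below the line, *Lox* and *Thbs2* lie far above it, and *Dcn* lies near it at the upper end.

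The summed FPKM of the 42 genes was 540 to 644 in Control and 309 to 396 in DOX, and 481 to 565 in Tb and 354 to 471 in Tb-DOX. *Dcn* alone made up 21.9% to 24.8% of this sum in Control and 34.1% to 55.6% in DOX. In tumor-bearing mice its share was 21.3% to 28.8% in Tb and 31.2% to 37.1% in Tb-DOX. Without *Dcn*, the sum was 406 to 497 FPKM in Control, 176 to 236 in DOX, 342 to 444 in Tb and 244 to 315 in Tb-DOX. In neither state did the DOX-treated and saline-treated ranges of the sum without *Dcn* overlap. In bulk tissue, fewer cells of a type and less RNA per cell cannot be told apart.

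**Figure D2:**
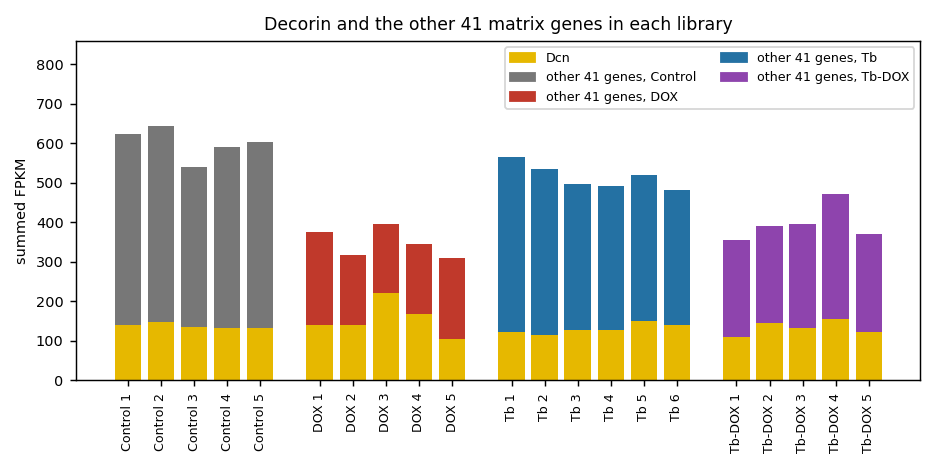
Bars give the summed FPKM of the 42 genes in each of the 21 libraries, with *Dcn* in yellow at the base and the other 41 genes above it in the color of the group. The yellow part is of similar height in most libraries, and the part above it is shortest in the 5 DOX libraries.

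Of the 42 genes, 38 had a mean FPKM of at least 0.5 over all libraries and were tested with edgeR's quasi-likelihood F test and Benjamini-Hochberg adjustment over all 13990 genes. A gene rose or fell when its adjusted p was under 0.05. In mice without a tumor the genes tested that fell most after DOX were *Comp*, *Lum* and *Mfap4*, at log2 fold changes of −2.22, −2.21 and −2.09, followed by *Postn*, *Prelp* and *Sparc* at −1.98, −1.92 and −1.74. *Comp* met the minimum level through Control, as its mean FPKM was 0.517 over all libraries, 0.976 in Control and 0.19 in DOX. Its fall, its place in the counts and its interaction term carry that limit. In DOX vs Control, 26 of the 38 fell and 2 (*Lox* and *Thbs2*) rose, where 18.2% of all genes tested fell and 18.0% rose. In fits without single libraries 24 to 27 fell and 2 rose, except that 4 rose without DOX 5 (*Dcn* and *Eln* in addition) and without Tb 5 (*Dcn* and *Thbs1* in addition). The median log2 fold change of the 38 genes was −0.78, against 0.00 over all genes tested. At a 2-fold change or more, 17 of them fell and 2 rose, against 5.79% and 4.16% of all genes tested. The FPKM values of DOX lay wholly below those of Control in 24 of the 38 (19.1% of all genes tested) and wholly above in 2 (6.13%). On the TMM-scaled CPM the corresponding counts were 21 and 2, where 13.3% and 12.0% of all genes tested lay wholly below and above.

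In tumor-bearing mice the largest falls among the genes that passed were those of *Mfap4* and *Vcan*, at log2 fold changes of −1.63 and −1.20, followed by *Lum* and *Postn*, both at −1.08. The place of *Vcan* depended on Tb 5, without which it was at −0.87 and *Postn* at −1.12. In Tb-DOX vs Tb, 12 of the 38 genes fell and *Thbs2* rose, where 2.54% of all genes tested fell and 2.18% rose. The median log2 fold change of the 38 was −0.37, against −0.02 over all genes. Tb-DOX lay wholly below Tb in FPKM in 6 of the 38 (2.04% of all genes tested) and wholly above in 1 (2.27%). On TMM-scaled CPM 9 lay wholly below and 1 above (2.22% and 2.73% of all genes tested). The count of 13 genes was lower without single libraries: 7 without Tb 1, 8 without Tb 2, 5 without Tb-DOX 1, 6 without Tb-DOX 2, 8 without Tb-DOX 3 and 6 without Tb-DOX 5. At the same adjusted p of 0.05, 5 genes (*Fbln1*, *Lum*, *Thbs2*, *Sparc* and *Nid1*) passed in every refit in which they were tested, a refit being a fit without 1 library or with another scaling, tool, filter or set of terms.

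**Figure D3:**
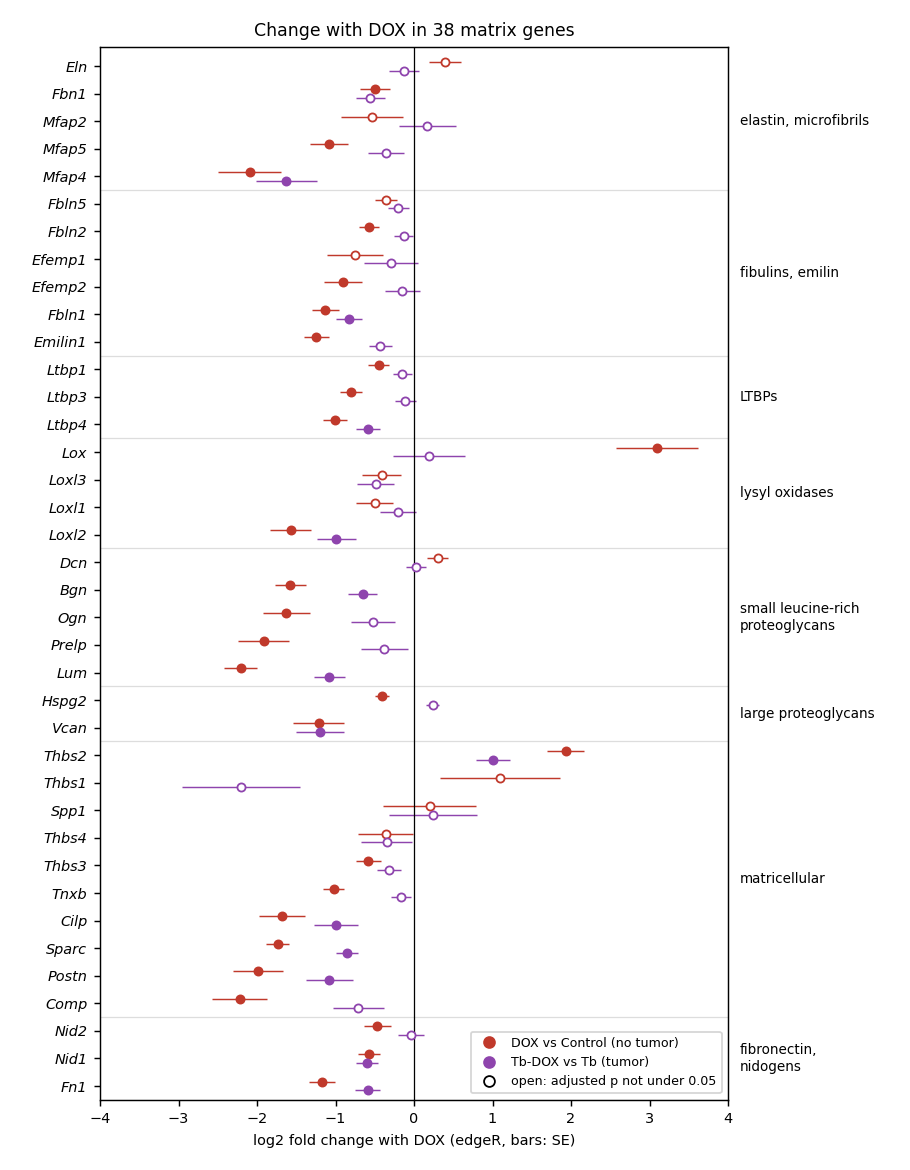
Points give the log2 fold change with DOX and its SE (edgeR) for the 38 genes tested, in mice without a tumor (red) and with a tumor (purple), grouped by role, and open points have an adjusted p of 0.05 or more. Red points lie below 0 in 32 of 38 genes and purple points in 32 of 38, and the red points reach further from 0 for *Lox*, *Lum*, *Prelp* and *Comp*.

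Among elastin and the microfibril genes, 3 of 5 tested fell in DOX vs Control and 1 of 5 fell in Tb-DOX vs Tb. Microfibril-associated protein 4, *Mfap4* (ENSMUSG00000042436, chr11:61376257-61379726), had the largest fall. Its level was 8.48, 12.6, 7.35, 9.46 and 8.53 CPM in the 5 Control libraries and 5.39, 1.31, 1.19, 1.44 and 1.43 CPM in the 5 DOX libraries. DOX 1 was the highest DOX library, and no DOX library reached the lowest Control library. The log2 fold change was −2.09 ± 0.40, adjusted p = 4.72e-04 and, without DOX 1, −2.78 ± 0.36, adjusted p = 1.95e-05. In tumor-bearing mice *Mfap4* was 3.01, 4.33 and 9.86 CPM (lowest, median and highest of 6) in Tb and 0.838, 1.57, 1.95, 2.22 and 2.08 CPM in Tb-DOX, again with no overlap. It fell by a log2 fold change of −1.63 ± 0.39, adjusted p = 0.021, a call that was lost without Tb 1, Tb-DOX 1 or Tb-DOX 2, where the highest adjusted p was 0.0631.

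*Mfap5*, a microfibril glycoprotein, was at 28.8, 24.8, 29.0, 21.1 and 17.1 CPM in Control and 21.3, 10.3, 7.29, 7.46 and 10.5 CPM in DOX, and DOX 1 alone lay within the Control range. It fell in DOX vs Control (log2 fold change −1.09 ± 0.24, adjusted p = 0.0015) and had a log2 fold change of −0.36 ± 0.23, adjusted p = 0.401 in Tb-DOX vs Tb, at 11.3, 12.2, 10.4, 9.91 and 10 CPM in Tb-DOX. *Mfap5* also fell in Tb vs Control, from the Control values above to 9.72, 13.4 and 17.9 CPM (lowest, median and highest) in Tb, by a log2 fold change of −0.81 ± 0.22, adjusted p = 0.033. Fibrillin-1 (*Fbn1*), the main protein of microfibrils, was at 52.3, 52.5, 48.3, 47.0 and 49.9 CPM in Control and 38.4, 29.1, 26.8, 44.1 and 38.6 CPM in DOX, all DOX libraries lying below Control. Its log2 fold change was −0.50 ± 0.19, adjusted p = 0.0437, and this call was lost in 11 of 21 refits that left out 1 library and with median-ratio scaling in place of TMM. *Fbn1* was 34.5, 46.2 and 83.5 CPM (lowest, median and highest) in Tb, where Tb 5 was highest, and 29.7, 32.0, 28, 42.1 and 36.2 CPM in Tb-DOX. Its log2 fold change there was −0.56 ± 0.18, adjusted p = 0.0815 and, without Tb 5, −0.34 ± 0.14, adjusted p = 0.147. *Eln*, the elastic core itself, did not pass in either comparison: it was at 31.2, 33.6, 33.7, 18.4 and 24.4 CPM in Control and 47.0, 34.2, 35.7, 47.7 and 20.7 CPM in DOX, with a log2 fold change of 0.39 ± 0.20, adjusted p = 0.14 and of −0.13 ± 0.19, adjusted p = 0.762 in tumor-bearing mice. DOX 5 was the lowest DOX library, and without it *Eln* passed in DOX vs Control. *Mfap2* did not pass either, at log2 fold changes of −0.53 ± 0.40 and 0.17 ± 0.36. The second value includes Tb 2 at 2.98 CPM, where the other Tb libraries held 0.482 to 1.37 CPM.

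Of the fibulins and emilin, 4 of 6 fell in DOX vs Control and 1 of 6 in Tb-DOX vs Tb, and all 6 had a log2 fold change below 0 in both. *Emilin1*, an elastin microfibril interface protein, was at 15.3, 15.0, 15.2, 13.4 and 15.0 CPM in Control and 5.66, 6.64, 5.44, 7.54 and 5.94 CPM in DOX. The groups lay far apart, with a log2 fold change of −1.25 ± 0.16, adjusted p = 1.25e-05. In tumor-bearing mice *Emilin1* was 15.9, 19.7 and 26 CPM (lowest, median and highest) in Tb and 15.1, 13.5, 15.5, 20.2 and 10.4 CPM in Tb-DOX. These groups overlapped and the gene did not pass (−0.43 ± 0.15, adjusted p = 0.0945).

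Fibulin-1 (*Fbln1*), which binds fibronectin and elastic fibers, fell in both states. It was at 28, 37.3, 28.6, 24.0 and 28.2 CPM in Control, 16.9, 13.4, 7.42, 13.2 and 15.9 CPM in DOX, 26.1, 30.4 and 39.1 CPM (lowest, median and highest) in Tb and 16.3, 19.8, 17.5, 17.4 and 16.3 CPM in Tb-DOX. Both treated groups lay wholly below their saline groups, with log2 fold changes of −1.13 ± 0.17, adjusted p = 5.76e-05 and −0.83 ± 0.16, adjusted p = 0.00661. *Efemp2* (fibulin-4), needed for elastic fiber assembly, was at 4.56, 6.2, 5.87, 4.21 and 4.17 CPM in Control and 2.69, 1.93, 4.18, 1.77 and 2.77 CPM in DOX, where DOX 3 reached the lower Control libraries, and fell (−0.90 ± 0.24, adjusted p = 0.0064). With a tumor *Efemp2* was 3.75, 5.06 and 5.82 CPM (lowest, median and highest) in Tb and 4.19, 3.50, 3.25, 6.55 and 4.47 CPM in Tb-DOX, groups that overlapped (−0.15 ± 0.22, adjusted p = 0.756). *Fbln2* also fell (−0.57 ± 0.13, adjusted p = 0.00141), whereas *Fbln5*, which tethers lysyl oxidase activity to elastin, and *Efemp1* had log2 fold changes of −0.36 ± 0.14, adjusted p = 0.0522 and −0.75 ± 0.36, adjusted p = 0.105. *Fbln5* lay wholly below Control in FPKM and passed without Tb 5 (−0.35 ± 0.13, adjusted p = 0.0347) and without Control 3 (−0.41 ± 0.15, adjusted p = 0.0403).

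All 3 LTBP genes tested fell in DOX vs Control. *Ltbp4*, required for elastic fiber formation, was at 168, 165, 138, 177 and 187 CPM in Control and 96.7, 71.9, 79.6, 83.6 and 83.8 CPM in DOX. The lowest Control library lay well above the highest DOX library, and the log2 fold change was −1.01 ± 0.15, adjusted p = 6.17e-05. In tumor-bearing mice it went from 78.8, 123 and 180 CPM (lowest, median and highest) in Tb to 70.5, 93.9, 97.8, 77.9 and 87.6 CPM in Tb-DOX and fell (−0.59 ± 0.15, adjusted p = 0.0265), although Tb 6 lay among the Tb-DOX libraries and the call was lost in 5 of 21 refits without 1 library. With only the groups compared the call was lost too. *Ltbp3* was at 23.5, 27.1, 27.0, 29.7 and 27.5 CPM in Control and 17.5, 17.7, 10.5, 15.9 and 15.6 CPM in DOX, with no overlap (−0.80 ± 0.14, adjusted p = 2.47e-04). *Ltbp1*, at 48.5, 49.9, 50.8, 47.2 and 52.0 CPM and 34.1, 34.8, 25.4, 41.4 and 46.2 CPM in the same groups, fell less (−0.45 ± 0.13, adjusted p = 0.0117). In tumor-bearing mice *Ltbp3* was 15.7, 23.7 and 26.1 CPM (lowest, median and highest) in Tb and 18.7, 21.8, 23.9, 22.7 and 17.7 CPM in Tb-DOX, groups that overlapped. *Ltbp1* was 30.9, 43.2 and 51.8 CPM in Tb and 33.3, 37.6, 40.9, 36.9 and 43.7 CPM in Tb-DOX, which overlapped too. *Ltbp3* and *Ltbp1* had log2 fold changes there of −0.11 ± 0.14, adjusted p = 0.692 and −0.15 ± 0.13, adjusted p = 0.558.

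Of the 4 lysyl oxidases, 1 rose and 1 fell in DOX vs Control. *Lox* (ENSMUSG00000024529, chr18:52649139-52662939), the enzyme the family is named after, rose most of the 42 genes in DOX vs Control. It was at 7.58, 6.41, 5.19, 3.76 and 4.23 CPM in Control and 46.9, 33.7, 47.8, 77.0 and 27.4 CPM in DOX, so that the lowest DOX library exceeded the highest Control library by more than the whole Control range. Its log2 fold change was 3.10 ± 0.53, adjusted p = 1.56e-04, and it passed in every refit. In tumor-bearing mice no change with DOX was detected (log2 fold change 0.19 ± 0.46, adjusted p = 0.856). There *Lox* was 5.03, 8.09 and 52.8 CPM (lowest, median and highest) in Tb, with Tb 5 at 52.8 and Tb 6 at 24.2 and the other 4 at 8.12 or less, and 17.8, 23.6, 13.6, 26.5 and 17.6 CPM in Tb-DOX. Without Tb 5, the log2 fold change in Tb-DOX vs Tb was 0.95 ± 0.34, adjusted p = 0.104. *Loxl2*, in contrast, was at 20.7, 15.9, 14.0, 15.2 and 14.8 CPM in Control and 6.94, 5.10, 3.45, 2.49 and 9.10 CPM in DOX and fell (−1.57 ± 0.26, adjusted p = 1.30e-04). It also fell in tumor-bearing mice (−0.99 ± 0.25, adjusted p = 0.0255), from 8.31, 12.0 and 17.2 CPM (lowest, median and highest) in Tb to 5.76, 5.73, 7.36, 7.98 and 5.12 CPM in Tb-DOX, a call lost in 5 of 21 refits without 1 library. *Loxl1* and *Loxl3* did not pass in DOX vs Control (−0.50 ± 0.24, adjusted p = 0.101, and −0.41 ± 0.25, adjusted p = 0.194) or in Tb-DOX vs Tb (−0.20 ± 0.22, adjusted p = 0.662, and −0.49 ± 0.23, adjusted p = 0.237).

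Of the small leucine-rich proteoglycans, 4 of 5 tested fell in DOX vs Control, each by more than 2-fold, and 2 of 5 fell in Tb-DOX vs Tb. The median log2 fold change was −1.63 in DOX vs Control and −0.52 in Tb-DOX vs Tb. *Lum* (ENSMUSG00000036446, chr10:97400990-97408565), which regulates the spacing of collagen fibrils, was at 174, 179, 115, 169 and 161 CPM in Control and 47.7, 28.1, 20.9, 27.9 and 48.3 CPM in DOX. The lowest Control library was more than 2-fold above the highest DOX library, and the log2 fold change was −2.21 ± 0.21, adjusted p = 7.11e-07. In tumor-bearing mice *Lum* was 80, 115 and 143 CPM (lowest, median and highest) in Tb and 39.4, 50.2, 59.1, 61.3 and 60.7 CPM in Tb-DOX, with no overlap, and fell by a log2 fold change of −1.08 ± 0.20, adjusted p = 0.00424. It passed in both comparisons in every refit.

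*Prelp*, a proteoglycan that anchors basement membranes to connective tissue, was at 57.1, 55.6, 28.6, 50.4 and 51.2 CPM in Control and 22.2, 15.9, 7.49, 7.54 and 11.2 CPM in DOX. Control 3 was low, but still above every DOX library, and *Prelp* fell (−1.92 ± 0.32, adjusted p = 1.54e-04). In tumor-bearing mice the values were 10.4, 33.7 and 45.1 CPM (lowest, median and highest) in Tb and 19.6, 22.7, 28.1, 20.5 and 28.3 CPM in Tb-DOX. These overlapped, and the log2 fold change was −0.38 ± 0.30, adjusted p = 0.515. *Ogn*, a collagen-binding proteoglycan also called mimecan, was at 176, 206, 135, 197 and 196 CPM in Control and 75.8, 68.1, 23.5, 42.4 and 85.5 CPM in DOX and fell (−1.63 ± 0.30, adjusted p = 3.04e-04). In Tb, libraries 5 and 6 of *Ogn* were low at 63.3 and 59.8 CPM, the other 4 lay at 125 to 170 CPM, and Tb-DOX held 79.5, 88.1, 88.8, 57.6 and 93.0 CPM (−0.52 ± 0.28, adjusted p = 0.303, and without Tb 5 −0.65 ± 0.27, adjusted p = 0.159).

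Biglycan fell, whereas decorin, its closest relative in this family, did not pass. *Bgn* was at 243, 230, 171, 224 and 222 CPM in Control and 96.4, 59.2, 38.2, 69.0 and 103 CPM in DOX and fell (−1.58 ± 0.20, adjusted p = 1.24e-05). In tumor-bearing mice it went from 132, 150 and 213 CPM (lowest, median and highest) in Tb to 101, 106, 91.1, 118 and 109 CPM in Tb-DOX and fell by a log2 fold change of −0.66 ± 0.19, adjusted p = 0.0485, a call lost in 15 of 21 refits without 1 library. This call was also lost with scaling by library totals, with limma on log2(FPKM + 1) or log2(FPKM + 0.1) and with robust moderation. *Dcn* (ENSMUSG00000019929, chr10:97315471-97354005) was at 837, 874, 714, 792 and 765 CPM in Control and 907, 929, 1272, 1110 and 683 CPM in DOX, with DOX 3 and DOX 4 highest and DOX 5 lowest of all 10. It did not pass, at log2 fold changes of 0.30 ± 0.13, adjusted p = 0.0779 in DOX vs Control and 0.02 ± 0.13, adjusted p = 0.946 in Tb-DOX vs Tb. In a fit without Tb 5, the highest Tb library, the first of these passed (0.31 ± 0.12, adjusted p = 0.0445), where that library no longer entered the shared estimate of the spread, and the second was 0.11 ± 0.12, adjusted p = 0.676.

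**Figure D4:**
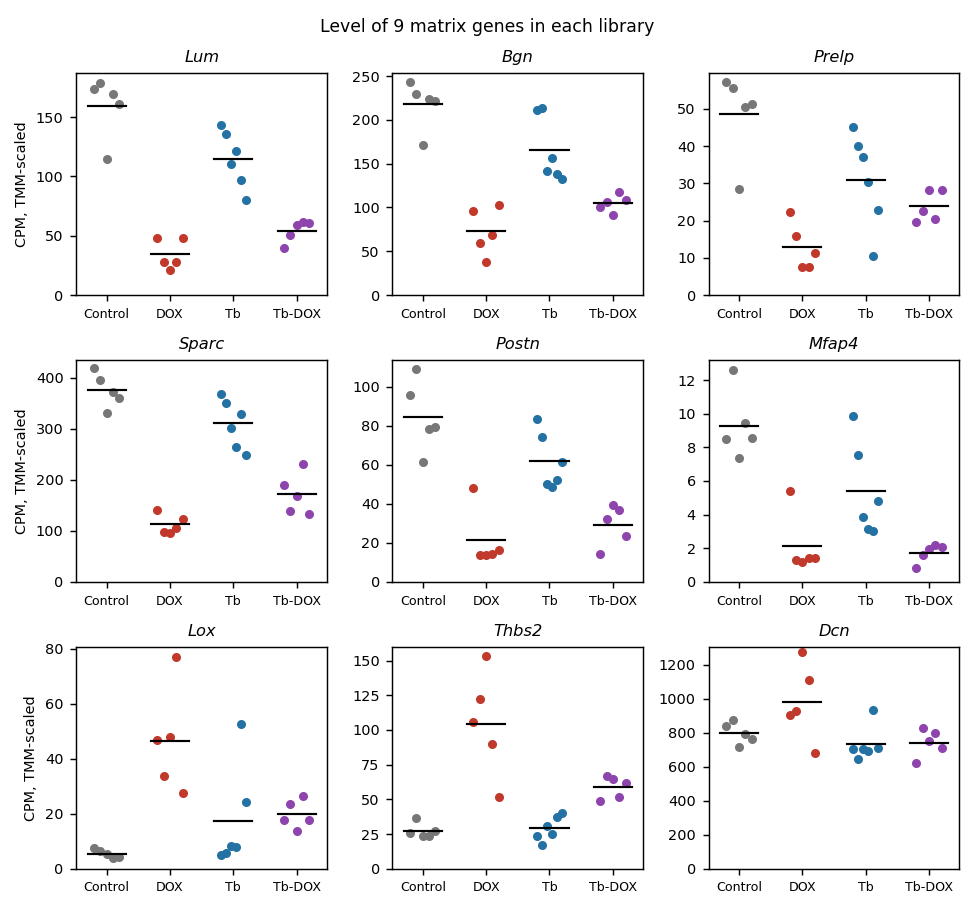
Each point is 1 library and each short line a group mean, in CPM after TMM scaling on a linear axis from 0, for 9 genes across Control, DOX, Tb and Tb-DOX. *Lum*, *Bgn*, *Prelp*, *Sparc*, *Postn* and *Mfap4* have their lowest group mean in DOX or Tb-DOX, *Lox* and *Thbs2* have their highest in DOX, and Tb 5 is the high Tb point of *Lox* and *Dcn*.

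Both large proteoglycans fell in DOX vs Control. Versican (*Vcan*), a hyaluronan-binding proteoglycan, was at 35.5, 24.2, 18.0, 25.4 and 22.3 CPM in Control and 18.3, 10.8, 9.54, 8.50 and 6.73 CPM in DOX. DOX 1 lay just above Control 3 on this scale, and the log2 fold change was −1.21 ± 0.32, adjusted p = 0.00615. In tumor-bearing mice *Vcan* was 21.6, 25.1 and 60.7 CPM (lowest, median and highest) in Tb, with Tb 5 highest, and 7.04, 12.1, 12.8, 23.6 and 10.4 CPM in Tb-DOX. It fell by a log2 fold change of −1.20 ± 0.31, adjusted p = 0.0307, and without Tb 5 by −0.87 ± 0.26, adjusted p = 0.0486. The call was lost without Tb-DOX 1, Tb-DOX 2, Tb-DOX 3 or Tb-DOX 5 (highest adjusted p = 0.0859) and with only the groups compared. Perlecan (*Hspg2*), the heparan sulfate proteoglycan of basement membranes, had a smaller change. *Hspg2* was at 298, 319, 267, 329 and 343 CPM in Control and 261, 216, 199, 251 and 243 CPM in DOX and fell (−0.41 ± 0.09, adjusted p = 0.00137), all DOX libraries lying below Control. In tumor-bearing mice it was 235, 239 and 273 CPM (lowest, median and highest) in Tb and 284, 264, 305, 327 and 292 CPM in Tb-DOX, and the log2 fold change was 0.24 ± 0.09, adjusted p = 0.112.

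The matricellular genes were mixed: of 10 tested, 6 fell and 1 rose in DOX vs Control, and 3 fell and 1 rose in Tb-DOX vs Tb. *Sparc* (ENSMUSG00000018593, chr11:55285326-55314009), a collagen-binding protein with a role in collagen deposition, was at 418, 396, 331, 372 and 359 CPM in Control and 140, 98.5, 94.8, 106 and 123 CPM in DOX. The groups lay far apart, and the log2 fold change was −1.74 ± 0.15, adjusted p = 2.18e-07. In tumor-bearing mice *Sparc* was 249, 315 and 368 CPM (lowest, median and highest) in Tb and 190, 139, 169, 231 and 133 CPM in Tb-DOX, also with no overlap, and fell by a log2 fold change of −0.85 ± 0.14, adjusted p = 0.00188.

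Periostin, *Postn* (ENSMUSG00000027750, chr3:54268530-54298458), a marker of activated fibroblasts, was at 95.8, 109, 61.6, 78.3 and 79.2 CPM in Control and 48.2, 14.0, 13.9, 14.5 and 16.2 CPM in DOX. DOX 1 was more than 2-fold above the other DOX libraries and still below every Control library. The log2 fold change was −1.98 ± 0.32, adjusted p = 9.56e-05 and, without DOX 1, −2.53 ± 0.25, adjusted p = 1.19e-06. *Postn* fell in tumor-bearing mice too, from 48.6, 56.8 and 83.7 CPM (lowest, median and highest) in Tb to 14.4, 32.3, 39.6, 36.7 and 23.3 CPM in Tb-DOX (−1.08 ± 0.30, adjusted p = 0.0421), a call lost in 11 of 21 refits without 1 library. This call was also lost with scaling by library totals and with robust moderation. *Comp*, the cartilage oligomeric matrix protein, was at low levels of 2.18, 3.55, 2.96, 1.65 and 3.97 CPM in Control and 0.135, 0.695, 0.795, 0.802 and 0.633 CPM in DOX, with counts of 22 to 61 and 2 to 12 per library. It fell (−2.22 ± 0.35, adjusted p = 8.33e-05), and in tumor-bearing mice it was 0.907, 1.60 and 2.22 CPM (lowest, median and highest) in Tb and 0.671, 0.965, 1.30, 0.855 and 1.07 CPM in Tb-DOX (−0.71 ± 0.32, adjusted p = 0.213).

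*Thbs2* (ENSMUSG00000023885, chr17:14885762-14914497), a thrombospondin known as an inhibitor of angiogenesis, was the only one of the 42 genes that rose in both states. It was at 25.7, 36.9, 23.6, 23.9 and 26.9 CPM in Control and 106, 122, 153, 89.7 and 51.9 CPM in DOX. All DOX libraries exceeded all Control libraries, and the log2 fold change was 1.93 ± 0.24, adjusted p = 8.78e-06. In tumor-bearing mice *Thbs2* went from 17.3, 28.1 and 40.4 CPM (lowest, median and highest) in Tb to 48.6, 66.7, 64.6, 51.7 and 61.6 CPM in Tb-DOX, again with no overlap (1.01 ± 0.22, adjusted p = 0.0127).

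Tenascin-X (*Tnxb*), a large collagen-associated glycoprotein, was at 102, 105, 108, 95.5 and 95.5 CPM in Control and 59.3, 45.9, 39.8, 49.0 and 54.5 CPM in DOX and fell (−1.02 ± 0.14, adjusted p = 1.67e-05). With a tumor it was 44.7, 76.9 and 84.0 CPM (lowest, median and highest) in Tb, where Tb 5 was lowest, and 64.1, 53.7, 69.9, 66.1 and 61.5 CPM in Tb-DOX (−0.16 ± 0.13, adjusted p = 0.509, and without Tb 5 −0.26 ± 0.10, adjusted p = 0.125), so that its groups were apart without a tumor and overlapped with one. *Cilp*, cartilage intermediate layer protein, was at 6.55, 9.19, 5.87, 6.08 and 6.90 CPM in Control and 3.43, 1.62, 1.66, 2.41 and 1.58 CPM in DOX and fell (−1.68 ± 0.29, adjusted p = 2.00e-04). It also fell from 2.01, 4.14 and 6.33 CPM (lowest, median and highest) in Tb to 1.45, 1.93, 2.09, 3.36 and 2.26 CPM in Tb-DOX (−0.99 ± 0.28, adjusted p = 0.0437), the second call being lost in 13 of 21 refits without 1 library. That call was also lost with scaling by library totals, with limma on log2(FPKM + 1) or log2(FPKM + 0.1) and with only the groups compared. *Thbs3* fell in DOX vs Control (−0.58 ± 0.16, adjusted p = 0.00606). *Thbs4* and osteopontin (*Spp1*) did not pass, at log2 fold changes of −0.36 ± 0.35 and 0.20 ± 0.60 in DOX vs Control and −0.35 ± 0.33 and 0.24 ± 0.56 in Tb-DOX vs Tb. Without Tb 5 the Tb-DOX vs Tb value of *Thbs4* was 0.08 ± 0.26, adjusted p = 0.904.

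Promoter sequence is shown for 4 members that passed in DOX vs Control and lay among the largest changes with a window that could be printed, 3 that fell and 1 that rose, so that the letters before the starts of genes with opposite changes can be compared. RefSeq windows on GRCm38.p6 were matched by symbol for 28 of the 42 genes, and the 250 bases before the start were read on the gene's strand. Windows that a GENCODE M21 exon reaches into were not printed, and for *Ogn* the bases after the window's start site were not found near the beginning of any GENCODE M21 transcript of the gene. Capitals mark exact matches to TATAAA (given strand), or on either strand to CCAAT, to the GC box GGGCGG, to the AP-1 motif or to GGAATG (TEAD), where the AP-1 motif is TGA and TCA with any base between them. The windows are chr3:54360857-54361106 (plus strand) for *Postn*, chr9:65264930-65265179 (plus strand) for *Cilp* and chr13:49607765-49608014 (plus strand) for *Ogn*, which fell, and chr17:14694263-14694512 (minus strand) for *Thbs2*, which rose.
*Postn*: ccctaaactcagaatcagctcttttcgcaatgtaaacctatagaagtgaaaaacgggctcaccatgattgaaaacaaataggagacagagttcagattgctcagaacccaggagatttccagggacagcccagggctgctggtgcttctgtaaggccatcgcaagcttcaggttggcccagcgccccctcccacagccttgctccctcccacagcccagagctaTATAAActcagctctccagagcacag
*Cilp*: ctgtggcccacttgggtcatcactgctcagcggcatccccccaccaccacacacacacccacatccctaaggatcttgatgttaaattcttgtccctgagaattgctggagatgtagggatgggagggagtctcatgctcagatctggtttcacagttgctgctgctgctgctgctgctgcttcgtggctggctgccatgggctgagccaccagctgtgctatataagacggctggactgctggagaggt
*Ogn*: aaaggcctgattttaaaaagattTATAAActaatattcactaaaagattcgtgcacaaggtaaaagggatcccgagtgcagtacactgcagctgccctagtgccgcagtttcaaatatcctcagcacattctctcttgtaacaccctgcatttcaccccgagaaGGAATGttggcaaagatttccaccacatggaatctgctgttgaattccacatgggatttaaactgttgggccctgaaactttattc
*Thbs2*: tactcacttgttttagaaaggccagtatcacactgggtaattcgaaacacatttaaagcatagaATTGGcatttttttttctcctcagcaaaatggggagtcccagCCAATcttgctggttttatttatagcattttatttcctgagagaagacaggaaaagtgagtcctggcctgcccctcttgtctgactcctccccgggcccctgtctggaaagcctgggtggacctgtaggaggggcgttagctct

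The *Postn* window held TATAAA 26 bases before the start, the *Ogn* window held it 227 bases before and GGAATG 86 bases before, and the *Thbs2* window held CCAAT or its reverse complement 186 and 144 bases before. The *Cilp* window held no exact match to these letters. Only exact matches were marked, so the near match tatataag close to the *Cilp* start was not. The 28 members had 39 windows, and where a member had several, the one whose bases after the start were found near the beginning of most GENCODE M21 transcripts of the gene was taken, whereas all 32851 windows of all genes were counted. GGGCGG was found in 15 of the 28, and in 32.7% of all windows. CCAAT was found in 7 (33.8% of all windows), TATAAA in 4 (7.59%), GGAATG in 3 (12.6%) and the AP-1 motif in 2 (6.75%). Among the 19 members with a window that fell in DOX vs Control, GGGCGG was found in 10, CCAAT in 5, TATAAA and GGAATG in 2 each and the AP-1 motif in 1. These are matches of letters and not sites.

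*Thbs1*, a thrombospondin that can activate latent TGF-beta, depended on 1 library. It was at 16.6, 14.4, 9.18, 9.09 and 9.25 CPM in Control, 31.6, 29.3, 31.8, 16.7 and 15.4 CPM in DOX and 6.31, 17.6, 8.80, 20.1 and 11.1 CPM in Tb-DOX. In Tb, Tb 5 held 290 CPM and the other 5 libraries 8.36 to 15.7 CPM. With all libraries *Thbs1* passed in none of the 5 comparisons, with log2 fold changes of 1.10 ± 0.76, adjusted p = 0.271 in DOX vs Control and −2.21 ± 0.75, adjusted p = 0.0933 in Tb-DOX vs Tb. Without Tb 5 these were 1.10 ± 0.28, adjusted p = 0.00342 and −0.01 ± 0.28, adjusted p = 0.989, so that *Thbs1* then rose in DOX vs Control. It then also was lower in Tb-DOX than in DOX (−0.97 ± 0.28, adjusted p = 0.0142), and its interaction term went from −3.30 ± 1.06, adjusted p = 0.0533 with all libraries to −1.11 ± 0.40, adjusted p = 0.0772. Tb 5 was also the highest Tb library for *Lox*, *Vcan*, *Fbn1*, *Dcn* and *Thbs4*.

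Fibronectin and both nidogens fell in DOX vs Control. Fibronectin (*Fn1*), a cell-binding glycoprotein of early matrix, was at 58.8, 62.9, 35.8, 55.0 and 54.6 CPM in Control and 32.3, 22.2, 18.4, 17.7 and 28.1 CPM in DOX with no overlap (−1.17 ± 0.17, adjusted p = 2.81e-05). In tumor-bearing mice it went from 50.8, 60.4 and 75.9 CPM (lowest, median and highest) in Tb to 43.7, 39.4, 39.9, 46.8 and 35.6 CPM in Tb-DOX and fell (−0.59 ± 0.16, adjusted p = 0.0334), a call lost in 6 of 21 refits without 1 library and with limma on log2(FPKM + 0.1). Nidogen-1 (*Nid1*), which links laminin to type IV collagen in basement membranes, was at 167, 187, 93.8, 171 and 190 CPM in Control and 112, 98.0, 92.1, 123 and 118 CPM in DOX, where Control 3 lay among the DOX libraries (−0.57 ± 0.14, adjusted p = 0.00405). In tumor-bearing mice its values were 124, 156 and 184 CPM (lowest, median and highest) in Tb and 102, 102, 101, 107 and 106 CPM in Tb-DOX, and it fell (−0.60 ± 0.14, adjusted p = 0.017). *Nid2* was at 14.8, 13.6, 11.7, 17.6 and 19.1 CPM in Control and 10.8, 10, 13.3, 10.1 and 11.3 CPM in DOX and fell by a small margin (−0.47 ± 0.18, adjusted p = 0.043), a call lost in 9 of 21 refits without 1 library (highest adjusted p = 0.123) and with no minimum FPKM. In tumor-bearing mice *Nid2* was 8.72, 10.8 and 15.1 CPM (lowest, median and highest) in Tb and 10.7, 9.77, 10.7, 14.9 and 10.2 CPM in Tb-DOX, and no change was detected (−0.04 ± 0.17, adjusted p = 0.926).

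The 4 genes below the minimum level were *Fbn2*, *Ltbp2*, *Fmod* and *Tnc*, encoding fibrillin-2, an LTBP that does not bind latent TGF-beta, fibromodulin and tenascin-C. Counts per library in Control were 20 to 36 for *Fbn2*, 41 to 83 for *Ltbp2*, 4 to 40 for *Fmod* and 13 to 52 for *Tnc*. In a fit with no minimum level, *Ltbp2* fell in DOX vs Control with a log2 fold change of −1.86 ± 0.34 (SE) and an adjusted p of 0.0002. The other 3 did not pass there, with log2 fold changes of 0.47 ± 0.35 for *Fbn2*, −1.85 ± 0.68 for *Fmod* and −0.54 ± 0.58 for *Tnc*.

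The interaction asks whether the change with DOX differed between tumor-bearing and other mice. It passed in 10 of the 38 genes. Of these, 9 had a positive term (3.95% of all genes tested), and each had fallen in DOX vs Control, so its log2 fold change with DOX was higher in tumor-bearing mice. Only *Lox* had a negative term (5.0% of all genes tested), and without single libraries 1 to 3 genes had one that passed. *Lum* had an interaction term of 1.13 ± 0.28, adjusted p = 0.0226, *Sparc* of 0.89 ± 0.20, adjusted p = 0.015, *Tnxb* of 0.86 ± 0.19, adjusted p = 0.0141 and *Hspg2* of 0.65 ± 0.12, adjusted p = 0.00884, and these 4 passed in every refit. *Prelp* had a term of 1.54 ± 0.43, adjusted p = 0.033, *Comp* of 1.51 ± 0.48, adjusted p = 0.0493 and *Bgn* of 0.92 ± 0.27, adjusted p = 0.0382, which were lost in 8, 19 and 15 of the 21 refits without 1 library. That of *Comp* was also lost with limma on log2(FPKM + 0.1), with no minimum FPKM and with robust moderation. *Emilin1* (0.82 ± 0.21, adjusted p = 0.0262) was lost without DOX 3 and with limma on log2(FPKM + 1). *Ltbp3* (0.69 ± 0.20, adjusted p = 0.0344) was lost in 8 of 21 refits without 1 library and with no minimum FPKM.

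For *Lox* the interaction term was −2.90 ± 0.69, adjusted p = 0.0187. It passed without each library in turn, with terms of −3.09 to −2.15, of which −2.15 came without Tb 5, but did not pass with limma on log2(FPKM + 1). Without DOX 1, *Postn*, *Mfap5* and *Fn1* also passed, with interaction terms of 1.45 ± 0.31, adjusted p = 0.0121, of 1.09 ± 0.26, adjusted p = 0.0166 and of 0.72 ± 0.21, adjusted p = 0.0396, and *Comp* did not (1.25 ± 0.41, adjusted p = 0.0573). *Fn1* passed without Control 3 as well (0.69 ± 0.21, adjusted p = 0.0479). The median term of the 38 genes was 0.45, and that of all genes tested was 0.00 with TMM and 0.14 with scaling by library totals. Single libraries moved the count of 10 to 6 without Control 2, Control 5, DOX 4 or Tb-DOX 3 and to 5 without DOX 3.

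The tumor by itself was compared in Tb vs Control. Here 3 of the 38 genes fell (1.29% of all genes tested) and 1 rose (5.0%), with a median log2 fold change of −0.22 over the 38. Besides *Mfap5*, the genes that fell were *Tnxb* and *Hspg2*. From the values given above, *Tnxb* fell by a log2 fold change of −0.52 ± 0.13, adjusted p = 0.0151 and *Hspg2* of −0.32 ± 0.09, adjusted p = 0.0269. In FPKM these 2 were the genes whose Tb libraries lay wholly below Control (1.17% of all genes tested), and none lay wholly above (4.55%), whereas on TMM-scaled CPM 1 lay wholly below and 1 above (1.97% and 4.21%). *Lox* rose in Tb vs Control (1.67 ± 0.50, adjusted p = 0.046), but without Tb 5 the log2 fold change was 0.92 ± 0.36, adjusted p = 0.193. The count of 4 was 1 without Control 2, 2 without any other single Control library, Tb 5 or Tb 6, and 7 without Tb 1. Of the 21 refits without 1 library, the call was lost in 15 for *Lox*, 7 for *Hspg2*, 6 for *Mfap5* and 0 for *Tnxb*. With limma on log2(FPKM + 0.1) the calls of all 4 were lost, with limma on log2(FPKM + 1) those of *Lox* and *Hspg2*, and with only the groups compared those of *Lox*, *Hspg2* and *Tnxb*. That of *Hspg2* was also lost with scaling by library totals and with no minimum FPKM, and that of *Lox* with robust moderation.

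In Tb-DOX vs DOX, 7 of the 38 genes rose (9.52% of all genes tested) and 2 fell (7.93%), and with scaling by library totals 12 rose and none fell (18.0% and 2.31% of all genes tested under that scaling). *Emilin1* was higher in Tb-DOX by a log2 fold change of 1.26 ± 0.16, adjusted p = 1.38e-05, *Fn1* by 0.79 ± 0.16, adjusted p = 0.00222 and *Sparc* by 0.61 ± 0.14, adjusted p = 0.00551, and these 3 passed in every refit. *Efemp2* (0.71 ± 0.24, adjusted p = 0.045), *Lum* (0.65 ± 0.21, adjusted p = 0.0338), *Ltbp3* (0.44 ± 0.14, adjusted p = 0.0372) and *Hspg2* (0.33 ± 0.09, adjusted p = 0.0143) also rose. *Thbs2* (−0.84 ± 0.23, adjusted p = 0.0152) and *Dcn* (−0.40 ± 0.13, adjusted p = 0.0376) were lower, and neither passed with scaling by library totals. Without single libraries the call of *Efemp2* was lost in 11 of 21 refits, of *Dcn* in 7, of *Lum* and *Ltbp3* in 6 each and of *Thbs2* in 1. With no minimum FPKM the calls of *Efemp2*, *Ltbp3* and *Hspg2* were lost, with only the groups compared those of *Efemp2*, *Ltbp3*, *Lum* and *Dcn*, and with limma on either scale those of *Dcn* and *Thbs2*. That of *Dcn* was also lost at a mean FPKM of at least 5. Tb-DOX lay wholly above DOX in FPKM in 10 of the 38 genes (14.3% of all genes tested) and wholly below in none (1.49%), and on TMM-scaled CPM these counts were 5 and 1 (7.66% and 6.83%). The count of 9 was 5 without DOX 3, DOX 4 or Tb-DOX 4 and 14 without Tb 5. DOX vs Control and Tb-DOX vs DOX share the DOX libraries, and Tb vs Control shares the Control libraries.

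Other genes of the same pathways were taken from 7 lists of 85 genes in all, of which 66 were tested. In DOX vs Control 27 of these fell and 6 rose, where 18.2% of all genes tested fell and 18.0% rose. In Tb-DOX vs Tb 12 fell and 2 rose, where 2.54% of all genes tested fell and 2.18% rose. The second count of 14 was 9 or less without Tb 1, Tb 2, Tb 3, Tb-DOX 1, Tb-DOX 2, Tb-DOX 3 or Tb-DOX 5, and 4 at the lowest, without Tb-DOX 2. The fibrillar and type VI collagens, the fibers on which the proteoglycans sit, fell in 9 of 9 genes in DOX vs Control and in 4 of 9 in Tb-DOX vs Tb. *Col3a1* had the largest change, at −3.71 ± 0.50, adjusted p = 1.74e-05. Other elastic fiber genes fell in 2 and rose in 2 of 9 in DOX vs Control, near the shares of all genes tested. *Adamtsl2*, a microfibril-binding protein, was at −1.74 ± 0.26, adjusted p = 4.69e-05. Of the other small leucine-rich proteoglycans 3 of 4 fell, with *Ecm2* at −1.80 ± 0.27, adjusted p = 4.49e-05.

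The counts that follow are for DOX vs Control, where 18.2% of all genes tested fell and 18.0% rose. Of 11 other matricellular genes 4 fell and 2 rose, with *Spock2*, a testican, at 2.75 ± 0.50, adjusted p = 3.14e-04. Among 11 other proteoglycan and hyaluronan genes 4 fell and 1 rose, and *Gpc6*, a glypican, had the largest change among those that passed, at −1.05 ± 0.25, adjusted p = 0.003. The matrix receptors had 4 that fell and 1 that rose of 13, with integrin beta 3 (*Itgb3*) at 1.51 ± 0.50, adjusted p = 0.0221. Of 10 TGF-beta ligands, receptors and response genes 1 fell and 1 rose, and *Ccn2*, a TGF-beta response gene, was at 1.96 ± 0.57, adjusted p = 0.0108. *Ccn2* is also in the list of other matricellular genes and is counted in both lists.

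Some markers of the cells that could carry these changes moved as well. Of all genes tested, 18.2% fell and 18.0% rose in DOX vs Control. In Tb-DOX vs Tb these shares were 2.54% and 2.18%. The summed level of 9 fibroblast markers that are not among the 42 genes was 1470 to 1660 CPM in Control, 616 to 1081 in DOX, 809 to 1330 in Tb and 789 to 1142 in Tb-DOX. In DOX vs Control 6 of the 9 fell and 2 rose: *Dpt* had a log2 fold change of −1.39 ± 0.18, adjusted p = 1.24e-05 and *Cd248* of −1.84 ± 0.29, adjusted p = 7.37e-05, whereas *Pdgfra* (0.44 ± 0.12, adjusted p = 0.00661) and *Scara5* (0.47 ± 0.12, adjusted p = 0.00522) rose. In Tb-DOX vs Tb 1 of the 9 fell and 1 rose. None of the 9 was at 0. The summed level of 8 cardiomyocyte markers was 50859 to 66663 CPM in Control and 71314 to 83693 in DOX, where 4 of 8 rose, and 44254 to 52359 in Tb and 58074 to 71778 in Tb-DOX, where 3 of 8 rose. The 7 endothelial markers summed to 733 to 888 CPM in Control and 643 to 834 in DOX, with 1 of 7 passing, and to 776 to 1040 in Tb and 699 to 876 in Tb-DOX, with 0 passing in edgeR (1 at an unadjusted p under 0.05). The 9 smooth muscle and pericyte markers summed to 1371 to 1631 CPM in Control and 1527 to 1697 in DOX, with 1 of 9 passing, and to 1189 to 1614 in Tb and 1296 to 1505 in Tb-DOX, with 2 of 9 passing. The 9 macrophage markers summed to 218 to 272 CPM in Control and 112 to 174 in DOX, where 6 of 9 fell, and to 283 to 380 in Tb and 180 to 405 in Tb-DOX, where 2 of 9 fell. Neutrophil markers (8 genes) summed to 0.586 to 2.48 CPM in Control and 5.7 to 53.4 in DOX, and to 538 to 5291 in Tb and 797 to 3499 in Tb-DOX. Of 4 activated fibroblast markers tested 2 fell in DOX vs Control and 0 passed in Tb-DOX vs Tb, and the list of 5 summed to 179 to 238 CPM in Control and 128 to 251 in DOX. Tb summed to 99 to 265 and Tb-DOX to 124 to 163. This list shares *Acta2* with the smooth muscle and pericyte list and *Meox1* with the fibroblast list. Schwann cell markers summed to 10.6 to 14.5 CPM in Control, 6.43 to 9.16 in DOX, 6.93 to 12.8 in Tb and 5.62 to 11.3 in Tb-DOX, and of 2 tested 2 fell in DOX vs Control and 0 passed in Tb-DOX vs Tb. T cell markers (6 genes) summed to 0.976 to 2.51 CPM in Control, 5.45 to 311 in DOX (median 10.1), 2.81 to 46.6 in Tb and 3.32 to 11.9 in Tb-DOX. Only 1 of the 6 met the minimum level, a mean over all libraries, and it did so through libraries where it was high. This gene rose in DOX vs Control and did not pass in Tb-DOX vs Tb, and the rise is not read as a result. Erythroid markers (5 genes) summed to 203 to 793 CPM in Control and 368 to 828 in Tb, against 4.71 to 132 in DOX and 2.4 to 28.8 in Tb-DOX, and 5 of 5 fell in both DOX comparisons. The part of these cell markers in the changes of the 42 genes was not tested.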

How the data were processed

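Heart RNA of 21 mouse libraries was used, grouped by their titles. Per the labels, the authors processed reads with cutadapt, HISAT2 and HTSeq 0.6.1 on GRCm39 and listed DESeq2 1.34.0. They deposited 1 table that holds, for each gene and library, a whole-number count and its FPKM. FPKM equaled the count divided by gene length and library total in 100% of values (within 0.006). The other deposited columns hold gene annotation, from which IDs, lengths and coordinates (GRCm39) were taken. Whether counting used strand is not given in the sources used here, so reads of overlapping antisense genes cannot be told apart.

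Counts of 13990 genes, those whose FPKM averaged 0.5 or more over all libraries, were fitted in edgeR 4.0.16 (R 4.3.3) with TMM scaling and quasi-likelihood F tests, 1 coefficient per group, all libraries in 1 fit. P-values are two-sided, with Benjamini-Hochberg adjustment over these genes. Values after ± are SEs of log2 fold changes, derived from the F statistic, or SDs of FPKM. CPM values carry TMM factors. Same-numbered libraries of different groups did not deviate together (residual correlations −0.187 to 0.144 over 30 pairs), so no pairing was used. The 42 genes and all lists were chosen with earlier results of these data known. Library values (for Tb the lowest, median and highest) were given for up to 3 genes per role (4 for matricellular genes) with the largest changes among those that passed in a DOX comparison, and for every gene that passed in both DOX comparisons, in the interaction or in Tb vs Control. Those of *Eln*, *Dcn* and *Thbs1* were added after their values were seen. Alternatives were other scalings, DESeq2 1.42.0, limma 3.58.1 on log2(FPKM + 1) and log2(FPKM + 0.1), other minimum levels and thresholds, robust moderation, the replicate number as a block, only the groups compared, and leaving out each library.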

Additional observations from a re-analysis of the deposited data

Results flagged for a closer look

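In 152 gene and group pairs (38 genes in 4 groups), Dixon's test at the 95% level found 1 library apart in 17, or 11.2%. Its chance level of about 1 in 20 holds for independent groups of normally distributed values. These genes share the same 21 libraries, so the share is a description and is not compared with chance. Tb 5 was the highest Tb library in 5 of them: *Thbs1* at 290 CPM (the other Tb libraries at 8.36 to 15.7), *Dcn* at 931 (646 to 710), *Fbn1* at 83.5 (34.5 to 50.5), *Vcan* at 60.7 (21.6 to 26.8) and *Thbs4* at 15.1 (3.88 to 6.50). In DOX, library 1 was the highest for *Postn* at 48.2 CPM (the others at 13.9 to 16.2), *Mfap5* at 21.3 (7.29 to 10.5) and *Mfap4* at 5.39 (1.19 to 1.44), and the lowest for *Comp* at 0.135 (0.633 to 0.802). Control 3, the library with the smallest mitochondrial share, was the lowest Control library for *Bgn* at 171 CPM (222 to 243), *Lum* at 115 (161 to 179), *Nid1* at 93.8 (167 to 190) and *Prelp* at 28.6 (50.4 to 57.1). Single pairs were *Emilin1* in Control 4 at 13.4 CPM (15.0 to 15.3), *Thbs2* in Control 2 at 36.9 (23.6 to 26.9), *Mfap2* in Tb 2 at 2.98 (0.482 to 1.37) and *Nid2* in Tb-DOX 4 at 14.9 (9.77 to 10.7).

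The change with DOX differed between mice with and without a tumor in the 10 genes whose interaction passed, with terms in log2 of −2.90 for *Lox*, 0.65 for *Hspg2*, 0.69 for *Ltbp3*, 0.82 for *Emilin1*, 0.86 for *Tnxb*, 0.89 for *Sparc*, 0.92 for *Bgn*, 1.13 for *Lum*, 1.51 for *Comp* and 1.54 for *Prelp*. For *Thbs1*, every DOX library lay above the Control mean and every Tb-DOX library below the Tb mean, which includes Tb 5. Tb-DOX 2 (17.6 CPM) and Tb-DOX 4 (20.1 CPM) lay above the highest of the other 5 Tb libraries (15.7 CPM). Its interaction term was −3.30 and did not pass (adjusted p = 0.0533), and without Tb 5 it was −1.11 (adjusted p = 0.0772).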

How the results depend on the processing

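No call among the 38 genes reversed its direction in any alternative. The count that passed in DOX vs Control was 28, ranged from 26 to 31 without single libraries, and was 13 at a mean FPKM of at least 5, where 14 of the genes were tested. For Tb-DOX vs Tb (13 genes) it was 5 when a 2-fold change was also required, 3 at an adjusted p under 0.01, 8 at FPKM of at least 5, and 5 to 13 without single libraries. The interaction count of 10 was 4, 1 and 6 under these 3 settings and 5 to 12 without single libraries. For Tb vs Control (4 genes) it was 1, 0 and 2 (17 genes, and 20.5% of all genes tested, at an unadjusted p under 0.05 in edgeR), then 2 and 0 with limma on log2(FPKM + 1) and log2(FPKM + 0.1), 1 with only the groups compared and 1 to 7 without single libraries. For Tb-DOX vs DOX (9 genes) it was 1, 3 and 4, and 5 to 14 without single libraries, and 10 genes had groups that did not overlap in FPKM against 6 in TMM-scaled CPM, of which 5 were shared. With the replicate number as a replicate block, the counts were 27, 10, 6, 1 and 8 in the order DOX vs Control, Tb-DOX vs Tb, interaction, Tb vs Control and Tb-DOX vs DOX, and the calls lost were *Nid2* in DOX vs Control, *Vcan*, *Postn* and *Cilp* in Tb-DOX vs Tb, *Lox*, *Hspg2* and *Tnxb* in Tb vs Control, *Efemp2*, *Ltbp3* and *Dcn* in Tb-DOX vs DOX and the interactions of *Ltbp3*, *Lox*, *Prelp* and *Comp*. The numbers did not pair the libraries, as same-numbered libraries did not deviate together.

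Of the other pathway genes, 33 passed in DOX vs Control, 20 when a 2-fold change was also required, 18 at FPKM of at least 5, and 26 to 36 without single libraries. In Tb-DOX vs Tb 14 passed, 7 with that requirement, 2 at an adjusted p under 0.01, 22 with DESeq2, 8 with limma on log2(FPKM + 0.1), 8 at FPKM of at least 5, 5 with only the groups compared and 4 to 20 without single libraries. The cause of these shifts was not tested beyond the smaller number of genes or libraries that some settings hold. Depth limits *Comp*, *Mfap2* and the 4 genes below the minimum level.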
